A study of Mus musculus with 6 samples.

Results

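Cyclic AMP made by bicarbonate-sensing and membrane adenylyl cyclases, and protein kinase A (PKA) downstream of it, were followed through 10 genes in clear cells of the mouse epididymis. The genes were Adcy10, Adcy3, Adcy6, Adcy9, Gnas, Prkaca, Prkacb, Prkar1a, Prkar2a and Prkar2b, found by exact symbol among 37578 genes of the deposited expression table. RNA was sequenced from EGFP-positive clear cells sorted from 3 segments of the duct, caput at the testis end, corpus between, and cauda where sperm are stored, with 2 libraries each. All libraries came from untreated mice aged 12 weeks that carry EGFP behind the Atp6v1b1 (ATP6V1B1) promoter, and each library pooled 12 epididymides. Since that promoter is also the sorting gate, cells with little promoter activity were not collected. Reads in genes ranged from 18887128 to 24700717 per library.

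Clear cells acidify the duct lumen with the vacuolar proton pump (V-ATPase), and acid keeps stored sperm quiescent. In the textbook scheme, luminal bicarbonate activates soluble adenylyl cyclase (sAC, the product of Adcy10). The cyclic AMP it makes releases PKA catalytic subunits from their regulatory subunits, and pumps collect in the apical microvilli. Membrane cyclases answer instead to receptors through the stimulatory G protein subunit encoded by Gnas.

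RNA for 5 of the 9 genes tested was called higher in caput than in cauda, and for 3 it was called lower. Of all tested genes 33.9% were called higher and 33.0% lower. The bicarbonate sensor itself was at the detection limit. Prkacb, Prkar2a, Prkar1a and Adcy3 were higher in caput than in both other regions. Prkar2b peaked in corpus, Adcy9 was lowest in caput, and Gnas was lowest in caput under the scaling used. Adcy10 gave 15 reads in all 6 libraries together. Levels below are RPKM, reads scaled by gene length and an adjusted library size as deposited, given as mean ± SD of n = 2 libraries. The library sizes implied by the deposited values were 1.33 and 1.39 times the reads in genes in caput, 0.957 and 0.925 times in corpus, then 0.774 and 0.792 times in cauda, so levels carry a scaling close to the TMM factors of the test. Differences are log2 fold changes ± SE, positive where the first region named is higher, and come from quasi-likelihood tests in edgeR over 15816 genes. The threshold for a call was 0.05 on the p-value after Benjamini-Hochberg adjustment. Of the 10 genes, 9 passed the filter on low counts and were tested.

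**Figure D1:**
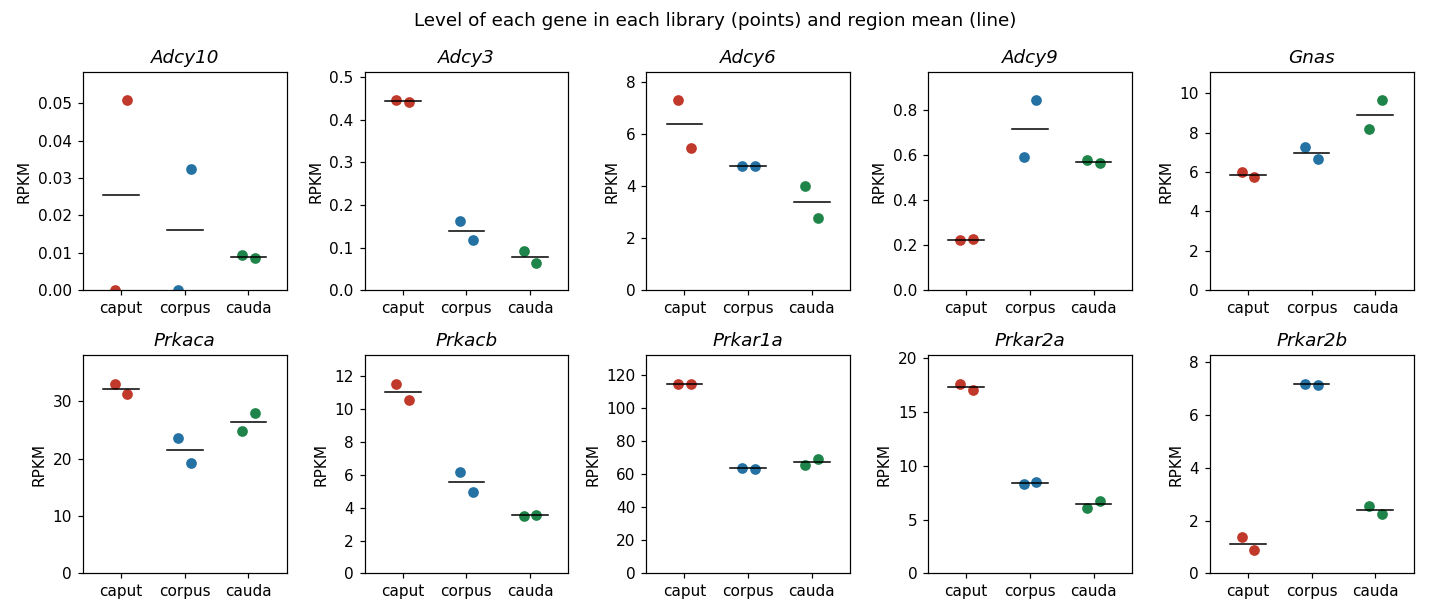
RPKM of the 10 genes in each library (points) with the mean of 2 libraries (line), by region; each panel has its own axis from 0. Prkar2b stands at 7.14 RPKM in corpus against 1.12 in caput, Prkacb from 11.5 in caput 1 to 3.51 in cauda 1, and Adcy10 stays at or below 0.0508.

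The markers of clear cells and of principal cells, the secretory cells of the same epithelium, moved with region in these libraries. The 11 clear cell markers summed to 3648 and 3483 RPKM in caput, 1118 and 1315 in corpus, then 391 and 496 in cauda. Of them 11 of 11 were called higher in caput than in cauda, as were 33.9% of all tested genes. They include Atp6v1b1, whose promoter is the sorting gate, at 178 and 160.5 RPKM in caput, 27.5 and 33.7 in corpus, then 8.56 and 12.5 in cauda. The 11 principal cell markers summed to 6566 and 7195 RPKM in caput, 53820 and 61620 in corpus, then 107200 and 98360 in cauda, mainly from Crisp1 and Cd52; 5 of these 11 were called lower in caput than in cauda and 6 higher. Foxi1, the transcription factor of proton-secreting cells, stood at 1053 and 946 RPKM in caput, 161 and 162 in corpus, then 63.0 and 84.9 in cauda, and no clear cell marker was at 0 in any library. Aqp9, a water channel of principal cells, stood at 6.86 and 3.95, 41.8 and 42.6, and 52.7 and 51.4 RPKM. In such bulk samples fewer cells of a type and less RNA per cell cannot be told apart, and the part of either marker list, or of those that follow, in the results below was not tested. Basal cell markers summed to 96.1 and 147 RPKM in caput and 38.8 to 59.1 elsewhere (Krt5 2.40 to 23.2), with 7 of 8 called higher in caput than in cauda. Leukocyte markers summed to 5.09 to 16.0 RPKM (Ptprc 0.0883 to 0.630). Stromal and endothelial markers summed to 313 and 329 RPKM in caput, 77.8 and 72.1 in corpus, then 200.4 and 239.5 in cauda. Dcn alone gave 307 and 308 RPKM of these sums in caput, and 168 and 192 in cauda. Of 10 genes tested from this list, 1 (Dcn) was called higher in caput than in cauda. Another 4 were called lower, among them Col1a1 (0.114 to 1.19 RPKM). Immediate early genes summed to 1459 to 3246 RPKM (Fos 400.2 to 718), with 15 of 15 higher in caput than in cauda. The sperm list summed to 51.4 and 347 RPKM in caput 1 and 2, 9.60 and 74.7 in corpus, and 48.8 and 107 in cauda, so libraries of 1 region differed widely.

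**Figure D2:**
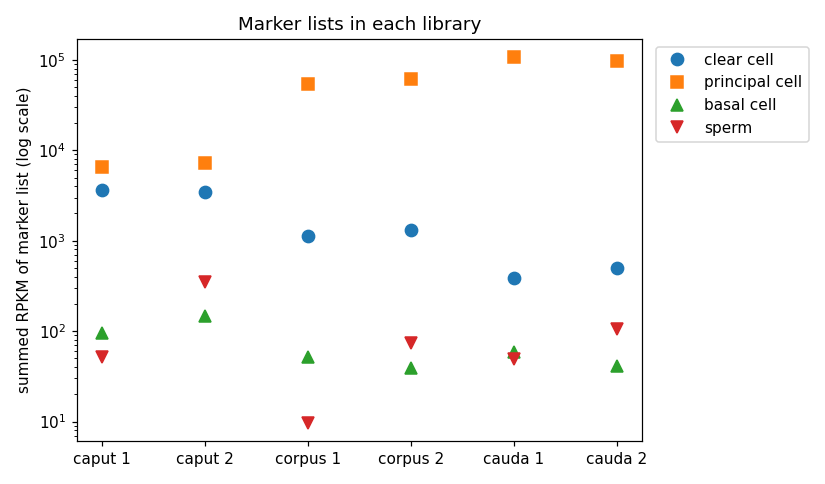
Summed RPKM of 4 marker lists in each library, on a log scale. Clear cell markers sum to 3648 in caput 1 and 391 in cauda 1, principal cell markers to 6566 and 107200, and the sperm list is highest in caput 2 at 347.

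Upstream sequence is shown for the sensor and for 3 regulatory subunits, whose regional orders were unlike. Prkar1a had 6 annotated starts and Prkar2b 2, and 1 window is shown for each. Which start clear cells use was not tested. Each line holds the 250 bases before an annotated start, 5′ to 3′, from RefSeq promoters of build GRCm38.p6, whereas the reads were placed on mm9; capitals mark any CRE (TGACGTCA), CRE core (TGACG), forkhead motif (TGTTTAC) or GC box (GGGCGG) on either strand.
Adcy10 chr1:165484933-165485182 (+ strand): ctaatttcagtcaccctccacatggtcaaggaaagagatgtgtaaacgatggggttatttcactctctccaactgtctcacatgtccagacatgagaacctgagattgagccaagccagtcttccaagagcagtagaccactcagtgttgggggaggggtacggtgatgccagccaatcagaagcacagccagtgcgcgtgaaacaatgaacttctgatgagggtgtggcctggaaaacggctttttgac
Prkar1a chr11:109650699-109650948 (+ strand): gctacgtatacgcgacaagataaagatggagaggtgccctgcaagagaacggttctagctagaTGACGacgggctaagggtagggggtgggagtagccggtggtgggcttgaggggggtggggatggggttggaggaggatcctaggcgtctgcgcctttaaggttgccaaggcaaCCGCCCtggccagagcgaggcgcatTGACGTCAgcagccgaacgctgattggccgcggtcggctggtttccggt
Prkar2a chr9:108691893-108692142 (+ strand): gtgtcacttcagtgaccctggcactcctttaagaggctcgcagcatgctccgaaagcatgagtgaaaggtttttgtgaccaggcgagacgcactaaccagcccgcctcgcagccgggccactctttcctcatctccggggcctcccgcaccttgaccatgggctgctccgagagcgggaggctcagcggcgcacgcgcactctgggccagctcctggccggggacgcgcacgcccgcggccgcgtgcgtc
Prkar2b chr12:32061278-32061527 (- strand): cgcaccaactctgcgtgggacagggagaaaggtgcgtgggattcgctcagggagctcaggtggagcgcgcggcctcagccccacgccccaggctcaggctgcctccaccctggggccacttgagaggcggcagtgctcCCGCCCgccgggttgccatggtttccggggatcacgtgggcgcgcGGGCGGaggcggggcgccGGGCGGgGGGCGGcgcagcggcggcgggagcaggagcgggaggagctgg

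Of the 10 genes 9 matched that table, all but Adcy6. The full CRE was found upstream of Prkar1a alone, in 1 of 22 windows, against 1.55% of all 32851 promoters. That window is the one shown for Prkar1a, and its other windows held no full CRE. A CRE is the DNA element bound by CREB, the transcription factor that PKA phosphorylates; the one CRE of Prkar1a also counts as a CRE core on each strand. The CRE core was present in 9 of 22 windows, some of which overlap, and in 17.8% of all promoters. GC boxes were present in 10 of 22 windows and in 32.7% of all promoters. The Prkar2b window shown held 4 boxes and the other Prkar2b window 0. The forkhead motif, the core bound by the family of Foxi1, was in 0 of 22 windows and in 3.17% of all promoters. The Adcy10 window held 5 CpG dinucleotides, against 24 for Prkar2a and 28 for Prkar2b and a median of 6 over all promoters. A match describes letters and not binding.

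Adcy10 was at or near the detection limit in every region. It had 0 reads in caput 1, 9 in caput 2, 0 in corpus 1, 4 in corpus 2, 1 in cauda 1 and 1 in cauda 2. These reads correspond to RPKM values from 0 to 0.0508, which placed Adcy10 at the 9.65th percentile of mean RPKM among 24902 genes with any read. In caput 1 and corpus 1 a count of 0 allows up to 3 reads, or 0.0143 and 0.0272 RPKM. Pooled over libraries, the level was 0.0230 RPKM in caput (exact Poisson 95% interval 0.0105 to 0.0437, on TMM-scaled library sizes), 0.0173 in corpus (0.0047 to 0.0442) and 0.00913 in cauda (0.00111 to 0.0330). The intervals overlap and cover counting error only, so no regional difference in Adcy10 was detectable at this depth. Without the filter on low counts, edgeR gave adjusted p = 0.541 for caput against cauda, 0.823 for caput against corpus and 0.845 for corpus against cauda.

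The library with most Adcy10 reads, caput 2, also had the highest sum over the sperm list, at 347 RPKM, though not for each gene of it: Smcp stood at 40.3 RPKM there, 54.2 in corpus 2 and 86.1 in cauda 2. The sperm chromatin gene Prm1 stood at 15.9 RPKM in caput 1 and 101 in caput 2, against 0 to 0.320 in the other regions. Akap4, which anchors PKA in the sperm tail, stood at 0.367 and 4.49 RPKM in the same caput libraries and at 0 to 0.0906 elsewhere. Germ cells are a known site of Adcy10 expression; the part of sperm RNA in these reads was not tested. By distance between centred log2 expression profiles over 6 libraries, the tested genes nearest to Adcy10 were Osbp2 (0.610), C1qtnf3 (0.703), Fmnl1 (0.826), Cdc25c (0.920) and Rasl12 (0.931), a ranking that rests on 15 reads for Adcy10.

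Of the membrane cyclases among the 10 genes, Adcy3 was called higher in caput than in both other regions and Adcy6 than in cauda only. Adcy9 was lower in caput than in both. Adcy3, the cyclase best known from olfactory cilia, measured 0.446 and 0.443 RPKM in the caput libraries, 0.162 and 0.117 in corpus, then 0.0920 and 0.0628 in cauda. Both caput libraries lay above all others, on 87 to 100 reads each against 8 to 20. Adcy3 was higher in caput than in cauda by 2.45 ± 0.42 (adjusted p = 0.000621) and than in corpus by 1.61 ± 0.39 (adjusted p = 0.00512). The corpus to cauda difference was not called (0.84 ± 0.45, adjusted p = 0.184), though the libraries of these regions did not overlap. Without corpus 2 the caput against corpus call was lost (adjusted p = 0.0517). Exons of Cenpo lie antisense to Adcy3 in the GENCODE M21 annotation, and reads counted without strand cannot part such genes.

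Adcy6, a cyclase inhibited by calcium and annotated with an antisense gene, Gm29331, was the most abundant of the 3 at 7.30 and 5.48 RPKM in caput, 4.78 and 4.79 in corpus, then 3.99 and 2.76 in cauda. Its levels formed a slope along the duct with no overlap between regions, and of the 3 differences only that between the ends passed the test. The caput to cauda difference was 0.86 ± 0.19 (adjusted p = 0.00369), the caput to corpus difference 0.35 ± 0.18 (adjusted p = 0.123) and the corpus to cauda difference 0.50 ± 0.19 (adjusted p = 0.0761). The last was called without the low count filter (adjusted p = 0.0477) and with 4 libraries only (adjusted p = 0.0283). It was also called without cauda 1 and without either caput library. Leaving out each library in turn gave 0.26 to 0.79 for it. With library totals as the only scaling, Adcy6 was also higher in caput than in corpus (0.94, adjusted p = 0.00119) and in corpus than in cauda (0.77, adjusted p = 0.00896). The caput to corpus difference was called without caput 2 too (0.54), and leaving out each library in turn gave 0.15 to 0.54. With the gene length trend removed the caput to corpus difference was 0.0027 (adjusted p = 0.991). The caput to cauda difference was then 0.47 (adjusted p = 0.0433).

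Adcy9, a widely expressed cyclase with weak forskolin sensitivity, ran the other way. It measured 0.222 and 0.227 RPKM in caput, 0.592 and 0.845 in corpus, then 0.578 and 0.566 in cauda, on 44 to 114 reads per library. Both caput libraries lay below the rest. Corpus and cauda did not overlap on this scale, but their difference was not called (0.33 ± 0.28, adjusted p = 0.417). Adcy9 was lower in caput at -1.41 ± 0.30 against cauda (adjusted p = 0.00224) and at -1.74 ± 0.29 against corpus (adjusted p = 0.000641). Under library totals the cauda difference shrank to -0.55 and was no longer called (adjusted p = 0.115).

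Adcy5 and Adcy7, cyclase genes outside the 10, differed between regions by more RPKM than these 3. Of 6 such genes 4 were tested: 2 were higher and 1 lower in caput than in cauda, 1 higher and 2 lower in caput than in corpus, and 3 higher in corpus than in cauda. Called shares of all tested genes, for these and the lists below, were 33.9% higher and 33.0% lower for caput against cauda. They were 33.2% and 31.8% for caput against corpus, and 17.3% and 18.0% for corpus against cauda. Adcy5, like Adcy6 inhibited by calcium, stood at 20.4 and 16.1 RPKM in caput, 1.84 and 2.04 in corpus, then 0.987 and 0.764 in cauda, and was higher in caput than in cauda by 4.32 ± 0.17 (adjusted p = 3.59e-08). Adcy7, a cyclase enhanced by protein kinase C, peaked in corpus at 17.2 and 18.2 RPKM against 4.09 and 2.83 in caput and 2.52 and 2.55 in cauda (corpus against cauda 2.80 ± 0.16, adjusted p = 3.54e-06). Adcy8, stimulated by calcium and calmodulin, was lower in caput, at 1.42 and 1.35 RPKM against 4.91 and 4.90 in corpus and 4.69 and 4.35 in cauda (caput against cauda -1.77 ± 0.13, adjusted p = 1.65e-06). The neuronal cyclase gene Adcy2 was lowest in cauda, at 0.140 ± 0.0531 RPKM against 1.05 ± 0.0558 in caput (caput against cauda 2.83 ± 0.37, adjusted p = 0.000103).

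A different cyclase held the most RPKM in each region. Adcy5 made up 58.3% and 58.5% of the RPKM of all 10 cyclase genes in caput, and Adcy7 55.4% and 56.9% in corpus. In cauda Adcy8 held 35.8% and 38.7% and Adcy6 30.4% and 24.6%. The sum itself was 35.0 and 27.6 RPKM in caput, 31.0 and 32.0 in corpus, then 13.1 and 11.2 in cauda. The share of Adcy10 was 0 to 0.184% in every library. With 2 libraries a region these shares were described and not tested.

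**Figure D3:**
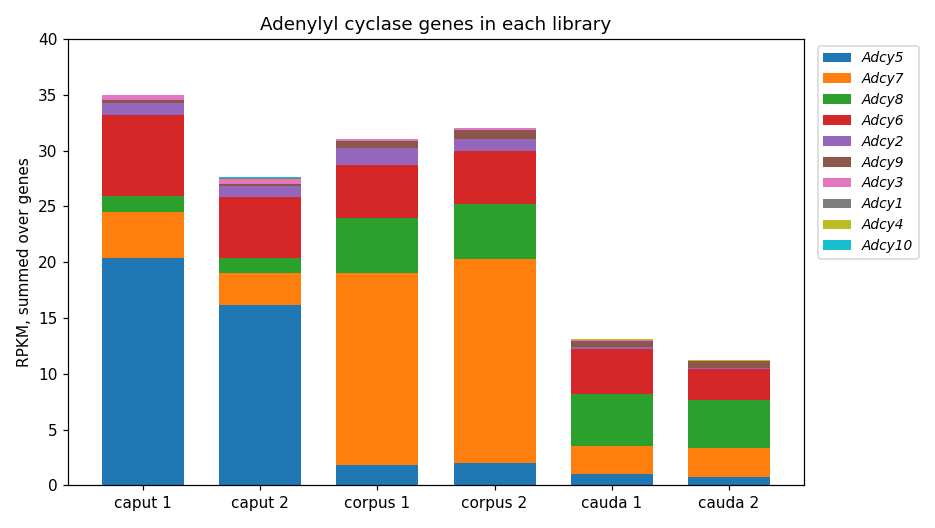
RPKM of all 10 adenylyl cyclase genes in each library, stacked. Adcy5 is the largest block in both caput libraries (58.3% and 58.5%), Adcy7 in both corpus libraries (55.4% and 56.9%) and Adcy8 in both cauda libraries (35.8% and 38.7%); the Adcy10 block is too thin to see.

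Gnas, whose main product couples receptors to membrane cyclases, was lowest in caput under the scaling used, and that order turned with the scaling. It measured 5.98 and 5.73 RPKM in caput, 7.26 and 6.67 in corpus, then 8.18 and 9.63 in cauda. The regions did not overlap on this scale. Per total reads in genes, the same libraries gave 7.95 and 7.94 in caput, 6.95 and 6.18 in corpus, then 6.33 and 7.63 in cauda, with caput highest and the other regions overlapping. Gnas was lower in caput at -0.67 ± 0.10 against cauda (adjusted p = 0.000217) and at -0.31 ± 0.10 against corpus (adjusted p = 0.0189), and lower in corpus than in cauda at -0.36 ± 0.10 (adjusted p = 0.0188). Under library totals the values became 0.19 (adjusted p = 0.137), 0.28 (adjusted p = 0.0423) and -0.09 (adjusted p = 0.536), so the first 2 reversed. That scaling moved the median over all tested genes from 0.0376 to 0.895 for caput against cauda, from 0.0362 to 0.626 for caput against corpus and from 0.0034 to 0.272 for corpus against cauda. The caput to corpus call was also lost without caput 2 (adjusted p = 0.0601) or corpus 1 (adjusted p = 0.114), and the corpus to cauda call without corpus 1 (adjusted p = 0.0613), corpus 2 (adjusted p = 0.139) or cauda 2 (adjusted p = 0.157). Gnas has several promoters and an antisense partner, Nespas, so its unstranded count mixes transcripts.

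The genes of the other G protein alpha subunits on this axis moved in both directions. Of 6 tested, 2 were higher and 4 lower in caput than in cauda, 2 and 3 in caput than in corpus, and 2 and 3 in corpus than in cauda. Over all tested genes the called shares were 33.9% and 33.0%, 33.2% and 31.8%, and 17.3% and 18.0%. Library totals gave 3 and 3, 3 and 1, and 3 and 0 for the 6 genes. Over all 15816 tested genes they gave 9501 higher and 2564 lower, 8438 and 2972, and 5154 and 1735. The inhibitory subunit gene Gnai1 peaked in corpus at 59.5 ± 0.0527 RPKM against 7.72 ± 0.763 in caput and 15.8 ± 0.426 in cauda (caput against corpus -3.01 ± 0.09, adjusted p = 2.16e-08). Gnai3 and Gnaz, also of the inhibitory class, were higher in caput than in cauda by 0.94 ± 0.07 (adjusted p = 3.29e-06) and 2.23 ± 0.17 (adjusted p = 2.96e-06). Gnai2, the most abundant at 94.0 to 142 RPKM, was lower in caput than in cauda at -0.35 ± 0.08 (adjusted p = 0.00438), which turned to 0.51 under library totals (adjusted p = 0.000458).

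Genes of receptors that couple to Gs also differed between regions in both directions. Of 25 listed, 24 were in the table and 10 were tested. Of these 10, 6 were higher and 2 lower in caput than in cauda, 6 and 1 in caput than in corpus, and 3 and 2 in corpus than in cauda. Beside them stood 33.9% and 33.0%, 33.2% and 31.8%, and 17.3% and 18.0% of all tested genes. Gpr64, an orphan adhesion receptor of the male excurrent duct, was higher in caput than in cauda by 7.53 ± 0.34 (adjusted p = 2.20e-07), at 12.4 ± 3.56 against 0.0631 ± 0.00287 RPKM. The calcitonin receptor gene Calcr was called higher too, at 1.06 ± 0.123 RPKM in caput against 1 read in each cauda library, and the prostaglandin E receptor gene Ptger4 was higher than in cauda by 2.06 ± 0.17 (adjusted p = 4.00e-06). Adora2b, an adenosine receptor, was lower in corpus than in cauda at -1.71 ± 0.36 (adjusted p = 0.00526), a call lost without corpus 1 or cauda 2.

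The catalytic subunits of PKA had unlike profiles: Prkacb was lower at each step along the duct, and Prkaca passed the test at 1 step only. Prkacb measured 11.5 and 10.5 RPKM in caput, 6.18 and 4.96 in corpus, then 3.51 and 3.56 in cauda. The regions did not overlap and each step was called. Prkacb was higher in caput than in cauda by 1.58 ± 0.11 (adjusted p = 1.7e-06), in caput than in corpus by 0.93 ± 0.11 (adjusted p = 6.24e-05) and in corpus than in cauda by 0.65 ± 0.11 (adjusted p = 0.00187).

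Prkaca, the more abundant catalytic gene in every library, measured 33.1 and 31.3 RPKM in caput, 23.7 and 19.3 in corpus, then 24.9 and 27.9 in cauda. Only the step from caput to corpus passed (0.52 ± 0.11, adjusted p = 0.00245). Caput against cauda gave 0.22 ± 0.11 (adjusted p = 0.104) and corpus against cauda -0.30 ± 0.11 (adjusted p = 0.0639). The former was called under library totals (1.08, adjusted p = 3.09e-05), without the low count filter (adjusted p = 0.0235) and with the gene length trend removed (adjusted p = 0.0173), and the latter without the filter (adjusted p = 0.0358) and without corpus 1 (adjusted p = 0.0359). As a share of both catalytic genes, Prkaca held 74.1% and 74.8% of RPKM in caput, 79.3% and 79.5% in corpus, then 87.7% and 88.7% in cauda. By reads, which follow gene length (2304 bases for Prkaca and 8580 for Prkacb), the mean shares were 43.9%, 50.9% and 66.7%, in the same order.

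The type I regulatory subunit gene Prkar1a was the most abundant of the 10 genes, and it was higher in caput than elsewhere. It measured 114 and 115 RPKM in caput, 63.9 and 63.1 in corpus, then 65.4 and 69.4 in cauda, which put it at the 96.5th percentile of mean RPKM. Its product holds the catalytic subunits mostly in the cytosol. Prkar1a was higher in caput by 0.70 ± 0.07 against cauda (adjusted p = 1.93e-05) and by 0.79 ± 0.07 against corpus (adjusted p = 9.76e-06). The difference of corpus against cauda was not called (-0.09 ± 0.07, adjusted p = 0.373), though their libraries did not overlap.

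The type II subunits, which bind A-kinase anchoring proteins and so place PKA at membranes, had unlike orders. Prkar2a measured 17.6 and 17.0 RPKM in caput, 8.30 and 8.47 in corpus, then 6.08 and 6.75 in cauda. It was higher in caput than in cauda by 1.37 ± 0.10 (adjusted p = 1.36e-06), in caput than in corpus by 0.98 ± 0.09 (adjusted p = 1.34e-05) and in corpus than in cauda by 0.38 ± 0.10 (adjusted p = 0.0131). The last call was lost without corpus 2 (adjusted p = 0.0701) or cauda 1 (adjusted p = 0.0973).

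Prkar2b measured 1.36 and 0.878 RPKM in caput, 7.18 and 7.11 in corpus, then 2.55 and 2.24 in cauda. Both corpus libraries stood above all others, and the groups did not overlap; per total reads in genes, caput (1.81 and 1.22) and cauda (1.97 and 1.77) did. Prkar2b was lower in caput than in corpus at -2.73 ± 0.20 (adjusted p = 2.34e-06), higher in corpus than in cauda by 1.58 ± 0.19 (adjusted p = 0.000225) and lower in caput than in cauda at -1.15 ± 0.20 (adjusted p = 0.00077). Under library totals the last difference was -0.30 and not called (adjusted p = 0.201). In all 13 settings tried the differences of corpus from both ends kept their calls. Among the 4 regulatory genes Prkar2b held 0.996% and 0.645% of RPKM in caput, 8.97% and 8.995% in corpus, then 3.43% and 2.84% in cauda, and Prkar1a held 79.8% to 88.2% throughout.

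**Figure D4:**
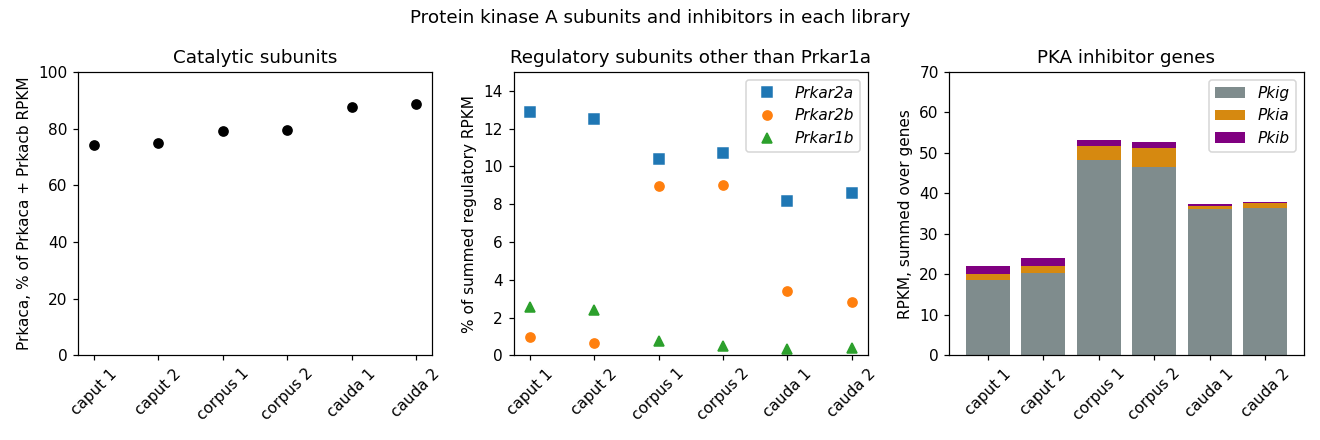
Per library, Prkaca as a percentage of both catalytic genes (left), 3 regulatory genes as percentages of all 4 (middle) and stacked RPKM of the PKA inhibitor genes (right). The Prkaca share rises from 74.1% in caput 1 to 88.7% in cauda 2, Prkar2b stands at 8.97% in corpus 1, and the inhibitor sum is highest in corpus at 53.2 and 52.8 RPKM.

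The other PKA genes followed no common order. Of 5 tested, 3 were higher and 1 lower in caput than in cauda, 3 and 2 in caput than in corpus, and 4 and 0 in corpus than in cauda. Matching shares of all tested genes were 33.9% and 33.0%, 33.2% and 31.8%, and 17.3% and 18.0%. Prkx, a related kinase gene, was higher in caput than in cauda by 0.78 ± 0.13 (adjusted p = 0.000505). The regulatory gene Prkar1b was higher in caput than in cauda by 3.55 ± 0.26 (adjusted p = 1.80e-06), at 3.39 ± 0.211 against 0.275 ± 0.0538 RPKM. Pkig, the most abundant gene of the protein inhibitors that block free catalytic subunits, was lower in caput at 19.5 ± 1.202 RPKM than in corpus at 47.4 ± 1.199 and cauda at 36.2 ± 0.196. Its caput to corpus difference was -1.34 ± 0.08 (adjusted p = 6.13e-07) and its caput to cauda difference -0.96 ± 0.08 (adjusted p = 4.46e-06), the latter not called under library totals (-0.10, adjusted p = 0.305). Pkib ran the other way between the ends, higher in caput than in cauda by 2.16 ± 0.16 (adjusted p = 2.45e-06), and Pkia was higher in corpus than in cauda by 2.03 ± 0.24 (adjusted p = 0.000184). Summed RPKM of regulatory genes was 137 and 136 in caput, 80.0 and 79.1 in corpus, then 74.3 and 78.7 in cauda. Its ratio to summed catalytic RPKM was 3.07 and 3.25 in caput, 2.68 and 3.26 in corpus, then 2.62 and 2.50 in cauda, and caput overlapped corpus.

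**Figure D5:**
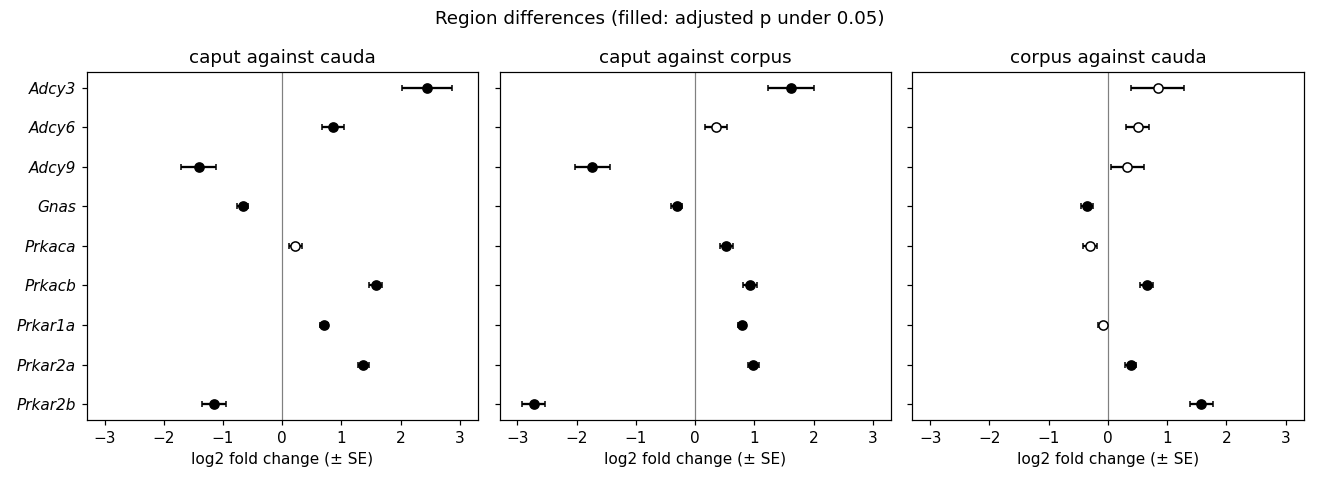
Log2 fold change ± SE of the 9 tested genes in each comparison, positive where the first region is higher; filled points have an adjusted p under 0.05. Prkar2b gives -2.73 for caput against corpus and 1.58 for corpus against cauda, and Prkacb lies to the right of 0 in all 3 panels.

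As counts, the 9 tested genes are read against the share of all genes called. For caput against cauda 5 were called higher and 3 lower, where 66.9% of all tested genes were called, 33.9% higher and 33.0% lower. For caput against corpus 5 were higher and 3 lower, against 65.0% called, 33.2% higher and 31.8% lower. For corpus against cauda 3 were higher and 1 lower, against 35.4% called, 17.3% higher and 18.0% lower. In the test of any difference among regions 9 of 9 were called, against 75.1% of all genes. Their median log2 fold change was 0.701, 0.524 and 0.383 in the 3 comparisons, beside medians of 0.0376, 0.0362 and 0.0034 over all tested genes. Nothing particular to these genes is read from the counts, and the comparisons share libraries.

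Anchoring proteins for PKA and phosphodiesterases, which break cyclic AMP down, moved in both directions. Of 14 anchoring protein genes tested from 19, 4 were higher and 7 lower in caput than in cauda, 4 and 5 in caput than in corpus, and 3 and 2 in corpus than in cauda. Library totals turned these splits to 10 and 1, 7 and 2, and 9 and 1. The same scaling split all 15816 tested genes into 9501 higher and 2564 lower, 8438 and 2972, and 5154 and 1735. In the main fit 33.9% and 33.0%, 33.2% and 31.8%, and 17.3% and 18.0% of all tested genes were called. Akap1, an anchor on mitochondria, was lower in caput than in cauda at -1.59 ± 0.11 (adjusted p = 1.44e-06), and Akap13, a large anchoring protein, was higher by 1.34 ± 0.11 (adjusted p = 3.95e-06). Ezr, the microvillar protein ezrin, was the most abundant at 232 ± 9.77 RPKM in caput, 123 ± 3.36 in corpus then 256 ± 6.08 in cauda, and was higher in caput than in corpus by 0.86 ± 0.07 (adjusted p = 6.39e-06). Pde4dip, a Golgi and centrosome anchor, was lower in caput than in corpus at -0.99 ± 0.10 (adjusted p = 2.68e-05). Arfgef2, a Golgi exchange factor, was lower in corpus than in cauda at -0.49 ± 0.12 (adjusted p = 0.00936) and Akap7 higher by 0.53 ± 0.16 (adjusted p = 0.0289), both calls lost without corpus 2 or cauda 1, the former also under library totals (-0.22, adjusted p = 0.171) and the latter also without cauda 2. Akap8l, a nuclear protein, stood at 38.7 to 45.7 RPKM by region and was not called.

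Among 14 phosphodiesterase genes tested from 16, 7 were higher and 3 lower in caput than in cauda, 7 and 3 in caput than in corpus, and 5 and 2 in corpus than in cauda. All tested genes gave 33.9% and 33.0%, 33.2% and 31.8%, and 17.3% and 18.0%. Pde1a, which calcium and calmodulin activate, stood at 55.6 ± 0.645 RPKM in caput, 11.3 ± 0.124 in corpus then 4.45 ± 0.842 in cauda (caput against cauda 3.58 ± 0.12, adjusted p = 2.33e-08). Pde4b, specific for cyclic AMP, was higher in caput than in cauda by 3.49 ± 0.18 (adjusted p = 1.72e-07), whereas Pde8b, also specific for it, was lower at -1.54 ± 0.09 (adjusted p = 5.16e-07). Its relative Pde8a was lower in caput than in corpus at -2.04 ± 0.14 (adjusted p = 1.48e-06). Pde7a was higher in corpus than in cauda by 1.34 ± 0.18 (adjusted p = 0.000375), and Pde1c was called higher there too, at 0.485 ± 0.130 against 0.00385 ± 0.00545 RPKM.

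Other cyclic AMP effectors and the CREB group are given beside the shares of all tested genes. These were 33.9% called higher and 33.0% lower for caput against cauda, and 33.2% and 31.8% for caput against corpus. For corpus against cauda they were 17.3% and 18.0%. Of the 5 genes of Epac proteins, their Rap targets and the efflux pump Abcc4, 3 were higher and 0 lower in caput than in cauda, 3 and 2 in caput than in corpus, and 3 and 0 in corpus than in cauda. Rap1b stood at 332 ± 3.29 RPKM in caput, 109 ± 3.36 in corpus then 87.1 ± 6.55 in cauda (caput against cauda 1.87 ± 0.08, adjusted p = 6.69e-08). Abcc4, which exports cyclic AMP, was higher in caput than in cauda by 4.39 ± 0.39 (adjusted p = 0.000137), at 10.6 ± 0.0436 against 0.480 ± 0.267 RPKM. The Epac gene Rapgef4 peaked in corpus (caput against corpus -2.40 ± 0.28, adjusted p = 5.05e-05), and Rapgef3 was higher in corpus than in cauda by 0.79 ± 0.16 (adjusted p = 0.00425). Rap1a was higher in caput than in cauda by 1.00 ± 0.12 (adjusted p = 5.14e-05). Of 8 genes of CREB family factors and coactivators, 6 were higher in caput than in cauda and 6 than in corpus with 0 lower in either, and 1 was higher in corpus than in cauda with 0 lower. With the gene length trend removed, 4 and 3 were called in the first 2 comparisons. Library totals gave 8 higher in each of those 2 and 3 higher in corpus than in cauda, with 0 lower. For the Epac, Rap and efflux genes that scaling gave 4 and 0, 3 and 1, and 5 and 0. Beside both lists, it gave 9501 higher and 2564 lower, 8438 and 2972, and 5154 and 1735 of all 15816 tested genes. Crem, a cyclic AMP-responsive factor, was higher in caput than in cauda by 1.44 ± 0.11 (adjusted p = 3.40e-06) and Creb1 by 0.80 ± 0.13 (adjusted p = 0.000424). The coactivator gene Crtc1 was higher by 0.76 ± 0.12 (adjusted p = 0.000311), and Atf1 was higher in caput than in corpus by 0.90 ± 0.16 (adjusted p = 0.000802). Crtc2, the most abundant of the group, differed by 0.28 ± 0.10 between caput and cauda (adjusted p = 0.0334), a call lost without caput 1 or either cauda library, with DESeq2's Wald test, and with the gene length trend removed (0.0225, adjusted p = 0.847). Beside these lists, the clear cell markers had a median log2 fold change of 3.54 for caput against cauda and 2.41 for caput against corpus, with 11 of 11 and 10 of 11 higher in caput; their part in the pathway results was not tested.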

How the data were processed

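The 10 genes and the pathway and marker lists were chosen with earlier results of these data known. The authors deposited whole-number read counts per gene for each of 6 libraries and a table of RPKM values; per the submitters' processing notes STAR, HTSeq and edgeR were used with build mm9, without versions. Counting ignored strand, per the file names. The deposited length column, in bases, was used for the length check. Rows without a gene (no feature 6.67% to 9.48%, ambiguous 1.39% to 1.83%, not unique 33.1% to 38.6% of records) were left out; genes in near-identical copies lose reads there. RPKM was used as deposited for levels and shares; the implied library sizes were computed from genes with over 200 reads. Counts were tested with edgeR 4.0.16 (R 4.3.3): filterByExpr, TMM factors (0.761 to 1.42), robust quasi-likelihood F tests with region as the only factor on all 6 libraries (3 residual degrees of freedom), two-sided, Benjamini-Hochberg over 15816 genes. SEs were derived as the size of the log2 fold change over the square root of its F. The steps were tested on simulated data. Replicates differed beyond sampling noise (chi-square per degree of freedom 9.57 to 17.2). The labels do not say whether the pools of a region were separate mice, so the spread behind each p-value may be technical. Alternatives were DESeq2 1.42.0, its size factors, library totals, no count filter, 4 libraries, a replicate block, removal of the length trend and leaving out each library. Beyond the 10 genes, those named were up to 3 called members of each pathway list per comparison with the smallest adjusted p and its 2 most abundant members, the first gene of each marker list, and the 5 genes nearest to Adcy10. Crisp1, Cd52, Dcn, Atp6v1b1 and Akap4 were named after their values were seen. A gene that this rule selects among the receptors is not reported here.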

Additional observations from a re-analysis of the deposited data

How the results depend on the processing

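Of 27 results (9 genes in 3 comparisons), 16 kept their side of the threshold in all settings tried. Direction was compared only where a fit called the gene. The Prkar1a difference of corpus against cauda, not called, turned from -0.09 to 0.18 under library totals. Results that crossed the threshold or reversed stand beside each gene in the report and, for the replicate block, below. Library totals changed most: for caput against cauda they gave 9501 genes higher and 2564 lower and 0 of the 10 genes lower, for caput against corpus 8438 and 2972, and for corpus against cauda 5154 and 1735 with 0 of the 10 genes lower. The Gnas values that reversed were 0.19 and 0.28. For corpus against cauda Prkaca was called lower beside Gnas without the count filter and with the replicate block. Leaving out each library in turn gave 0 to 1 lower genes of the 10 there, and 1856 to 3096 genes lower over the whole table. Same-numbered libraries of different regions deviated together only slightly (correlation 0.134 to 0.187 across genes), and with 2 numbers per region this is a hint, not a pairing; with the block, the Adcy6 differences of caput against corpus (0.34, adjusted p = 0.0442) and corpus against cauda (0.52, adjusted p = 0.0143) and the Prkaca difference of corpus against cauda (-0.31, adjusted p = 0.049) were also called. By reads instead of RPKM the mean share of Adcy10 in cauda was 0.0804%, of Prkaca 43.9%, 50.9% and 66.7% in caput, corpus and cauda, of Prkar1a 80.3% in corpus and 88.3% in cauda, of Prkar1b 3.12% in caput and 0.455% in cauda, and of Prkar2b 8.37% in corpus. For these moved values other than the shares, which follow gene length, the cause was not tested. Calls in the pathway lists moved by over 1.5 times mostly for corpus against cauda when 1 corpus or cauda library was left out. This held for the G alpha genes, receptors, anchoring proteins, phosphodiesterases and the CREB group. Without cauda 1, calls among anchoring protein genes also moved for caput against cauda. Such fits leave 1 library in a region, and calls over the whole table moved too, so nothing particular to these lists is read from them. Depth limits Adcy10, Adcy3 and Adcy9, with at most 114 reads per library.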
